A study of Mus musculus with 12 samples.

Results

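The 10 genes described here encode chains of cytokine receptors, listed by name: *Il3ra*, *Csf2rb*, *Csf2rb2* and *Csf2ra* of the IL-3 family, *Il2rg*, *Il4ra* and *Il7r* of the common gamma chain family, and *Il6st*, *Ifngr1* and *Ifnar1*. All 10 are among the 41255 genes of the mRNA table, and 7 are among the 10080 genes of the table of ribosome-protected fragments (RPF). *Csf2ra*, *Il7r* and *Il6st* are not in the RPF table and are described by mRNA only. The cells were Ba/F3, a lymphoid line from mouse, and carried a retroviral human *RPL10* cDNA, either *WT* or with the R98S mutation, and an shRNA against endogenous *Rpl10*, so the WT clones differ from the R98S clones in the transgene and also carry the knock-down. The 3 R98S clones (11, 13 and 35) and the 3 WT clones (28, 29 and 36) are separate monoclonal cultures grown from single-cell colonies, and each gave 1 mRNA and 1 ribosome footprinting library, 12 libraries in all. Cells of both genotypes received cycloheximide, which halts elongating ribosomes, at 100 μg/ml for 5 min.

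IL-3 binds an alpha chain encoded by *Il3ra*, which pairs with a beta chain that carries the signal into the cell. Mice have a pair of beta chains for this: the common beta chain encoded by *Csf2rb*, which also serves the GM-CSF and IL-5 receptors, and an IL-3-specific beta chain encoded by *Csf2rb2*. The beta chains bind the kinase JAK2, which activates STAT5, and Ba/F3 cells die when IL-3 is withdrawn. The other chains work in the same manner with other ligands. *Il2rg* encodes the common gamma chain, *Il6st* the shared gp130 chain, and *Ifngr1* and *Ifnar1* chains of the interferon receptors.

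Values are normalized counts, which are gene read counts divided by the size factor of the library within its own table. Depth for mRNA was 20576796 to 22178094 reads over R98S clones and 6617457 to 23136595 over WT clones, and for footprints 3477723 to 10883086 and 4611390 to 7162305. WT clone 28 had the shallowest mRNA library, where a single read makes 2.69 normalized counts, while it makes 0.784 to 0.860 elsewhere. Mouse *Rpl10*, to which reads of the transgene can also be assigned, was at 1449 to 2905 normalized mRNA counts in R98S and 2230.3 to 4501 in WT clones, which overlapped. The summed level of 14 B-lineage markers was 1357 to 1676 in R98S and 901 to 1163 in WT clones, without overlap. Of these, *Cd79a* and *Cd79b* reached a mean of 10 normalized mRNA counts, and *Pax5* and *Rag1* were at 0 in every library. Of 12 mast cell and basophil markers, 10 reached that mean, with *Cma1* the highest per kb and *Kit* at 0 throughout; their summed level was 22966 to 36185 in R98S and 28604 to 33245 in WT clones. The T-lineage (2 of 7), macrophage and granulocyte (2 of 6) and erythroid (4 of 6) lists were mostly low, led by *Cd3d*, *Cd68* and *Klf1*, with sums of 144 to 152, 99.2 to 156 and 452 to 674 in R98S and 58.0 to 77.9, 161 to 190 and 340.1 to 714 in WT clones. The T-lineage sums were thus higher and the macrophage and granulocyte sums lower in R98S clones without overlap. Sums of the mast cell and erythroid lists overlapped. In mRNA, 3 of these markers were called: *Cpa3* higher (log2 change 3.28, adjusted p = 0.0506, limma), and *Gata2* (-0.73, adjusted p = 0.0805) and *Hba-a1* (-3.93, adjusted p = 0.0147) lower in R98S clones. Of all tested genes, 3.03% were called higher and 3.91% lower in mRNA. The part that these differences play in any result below was not tested. In bulk libraries, fewer cells with a transcript and less of it per cell cannot be told apart.

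The beta chain genes lie head to head on chromosome 15 (GRCm38), *Csf2rb2* on the minus strand from 78282507 to 78305721 and *Csf2rb* on the plus strand from 78325752 to 78353847, with 20030 nt between them. They are close paralogs. Their coding sequences of 2688 nt (*Csf2rb*) and 2634 nt (*Csf2rb2*) were identical at 2504 of 2626 positions aligned without a gap (95.4%). Of all 30-nt windows in the counted coding sequence of *Csf2rb*, 40.2% occur unchanged in *Csf2rb2*, and 41.0% in the reverse case, so a footprint from such a window matches both genes. For whole transcripts, 18.9% and 19.0% of 50-nt windows are shared. TopHat gives a low mapping quality to reads that align equally well to more than 1 place, so the limit on mapping quality that the authors set would drop such reads from both genes. The level of each is then uncertain and may be too low, and the sum of both, which is given as well, does not restore dropped reads. The stretch of 60 coding bases in which they differ most lies in exon 4 of both, at chr15:78338893-78338952 on the plus strand and chr15:78294379-78294438 on the minus strand. It is shown because reads from it can be assigned, with the 13 differing bases in capitals:
Csf2rb: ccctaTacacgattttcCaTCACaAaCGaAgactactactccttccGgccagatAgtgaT
Csf2rb2: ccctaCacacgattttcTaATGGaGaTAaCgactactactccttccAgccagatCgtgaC

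The longest identical run has 242 bases of exon 14, coding bases 2083 to 2324 in both genes, at chr15:78348577-78348818 (plus strand, *Csf2rb*) and chr15:78284630-78284871 (minus strand, *Csf2rb2*). No read that lies within it can be assigned to either gene, and it is printed once for both, in lower case throughout since no base differs:
Csf2rb and Csf2rb2: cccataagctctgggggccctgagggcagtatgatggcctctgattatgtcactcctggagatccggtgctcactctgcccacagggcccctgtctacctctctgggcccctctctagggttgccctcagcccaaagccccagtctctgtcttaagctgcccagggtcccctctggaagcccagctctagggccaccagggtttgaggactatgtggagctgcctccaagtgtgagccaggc

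Upstream of the start sites, the RefSeq promoter windows (GRCm38.p6, 250 bases before to 50 after the start) of 9 chains were searched on both strands for TTCNNNGAA, the palindromic letters that STAT factors bind. It was present in 3 of them, *Csf2rb2*, *Il7r* and *Ifnar1*, and in 8.30% of all 32851 windows. The chain left out was *Csf2rb*, which had no window, so whether it has a match is not known here. The 100 bases before the start of *Csf2rb2* (chr15:78305722-78305821, minus strand) are shown because its match, TTCTGAGAA in capitals, lies 15 to 7 bases before the start of a gene whose mRNA differed between genotypes. A match of these letters is a description and not a binding site:
Csf2rb2: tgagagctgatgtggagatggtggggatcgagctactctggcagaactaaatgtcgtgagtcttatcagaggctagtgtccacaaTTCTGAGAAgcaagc

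Levels of different genes were compared per kb, of exon for mRNA and of counted coding sequence for RPF. Exon length was the union over all annotated transcripts of a gene, 7277 nt for *Csf2rb* and 4740 nt for *Csf2rb2*. The order of the beta chains in mRNA per kb depends on these lengths. Without length, mean normalized mRNA counts were higher for *Csf2rb* than for *Csf2rb2*, at 33338.5 against 25394 in WT and 60004 against 48611 in R98S clones. In WT clones, *Csf2rb2* had 5357 ± 1200 (SD, n = 3) and *Csf2rb* 4581 ± 1951 normalized mRNA counts per kb, ranks 130 and 159 among 17399 genes with a level above 0. The next chains were far lower, with *Il4ra* at 464 ± 104, *Il3ra* at 290.1 ± 73.5 and *Il2rg* at 238 ± 11.8. *Ifnar1* at 145 ± 3.10 and *Ifngr1* at 105 ± 20.4 were the lowest of the well-detected chains. Neighbours in this order whose WT clones overlapped were the beta chains with each other and *Il3ra* with *Il2rg*. In R98S clones, *Csf2rb2* (10256 ± 1301) and *Csf2rb* (8246 ± 862) took ranks 64 and 80 of 18723, and *Il2rg* (299 ± 120), *Il4ra* (260.4 ± 64.2) and *Il3ra* (248 ± 52.8) followed with overlapping clones, as did *Ifngr1* (138 ± 27.8) and *Ifnar1* (130.3 ± 14.4).

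By RPF per kb, *Csf2rb* stood above *Csf2rb2* in both genotypes without overlap. In WT clones they had 2534 ± 679 and 1769 ± 33.8 normalized RPF counts per kb (ranks 443 and 672 of 9724 genes), and in R98S clones 5078 ± 881 and 3753 ± 186 (ranks 152 and 248). The other chains had between 75.2 ± 14.6 (*Ifnar1*) and 633 ± 128 (*Il4ra*) per kb in WT clones, where *Il4ra* overlapped *Il2rg* (366 ± 137) and *Il2rg* overlapped *Il3ra* (338 ± 21.1). In R98S clones *Il3ra* (412 ± 20.5) came next, and it overlapped *Il4ra* (396 ± 157).

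**Figure D1:**
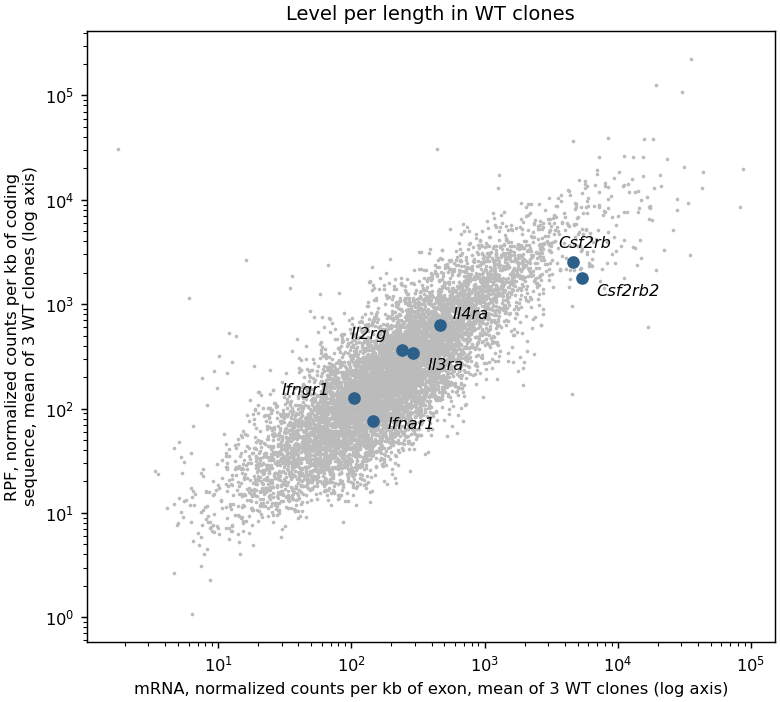
Each dot is a gene, at its mean normalized mRNA counts per kb of exon (x, log axis) and mean normalized RPF counts per kb of counted coding sequence (y, log axis) over the 3 WT clones, with 7 receptor chains labelled. *Csf2rb2* (5357 and 1769) and *Csf2rb* (4581 and 2534) lie at the right, below the middle of the cloud, and *Ifnar1* (145 and 75.2) also lies below it.

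The log2 ratio of RPF per kb to mRNA per kb, relative to the median of 8771 genes in each clone, places the chains among other mRNAs. *Csf2rb2* had the lowest ratio of the chains, between -1.90 and -1.40 in WT clones and between -1.68 and -1.34 in R98S clones, with 7.14% and 8.49% of genes below its mean. *Ifnar1* was at -1.02 ± 0.26 (SD, n = 3) in WT and -1.08 ± 0.07 in R98S clones, and *Csf2rb* at -0.86 ± 0.20 and -0.77 ± 0.15. These were the 3 chains under the median in all 6 clones. For the beta chains, the share of windows common to both genes is larger for footprint-sized windows of the coding sequence than for windows of the transcript (40.2% against 29.7% at 30 nt for *Csf2rb*), and its part in their low ratio was not tested. The gap between the beta chains in this ratio depends on their exon lengths of 7277 and 4740 nt. Their RPF to mRNA ratios without length overlapped, at 0.177 to 0.250 for *Csf2rb* and 0.148 to 0.224 for *Csf2rb2* over the 6 clones. *Il4ra* was above the median in all 6 clones (0.39 ± 0.23 in WT, 0.51 ± 0.19 in R98S), while the clones of *Il3ra*, *Il2rg* and *Ifngr1* lay on both sides of it.

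Between genotypes, *RPL10 R98S* and *WT* clones were compared by limma on log2(normalized count + 1), with p-values adjusted over all tested genes and a change called at an adjusted p under 0.1. This scale understates the change of genes with few counts. Of the 7 chains tested in mRNA, 1 was called higher in R98S clones and 1 lower, where 3.03% and 3.91% of all 11344 tested genes were. In RPF, 2 were called higher and 0 lower, where 3.13% and 4.62% of 9580 genes were (1 chain, *Il4ra*, was lower at an unadjusted p under 0.05, and DESeq2 on recovered reads also called 0 lower). The R98S clones lay entirely above the WT clones for 2 chains in mRNA and 4 in RPF, and entirely below for 1 and 0. Over all tested genes, such separation upwards was found for 11.9% in mRNA and 12.5% in RPF, and downwards for 11.6% and 12.8%.

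*Csf2rb2*, the IL-3-specific beta chain, was higher in R98S clones in both assays. R98S clones 11, 13 and 35 had 50609.6, 41694 and 53531 normalized mRNA counts, and WT clones 28, 29 and 36 had 19926, 31276 and 24982. Its RPF was at 10198, 9277 and 9505 in R98S and at 4462, 4635 and 4565 in WT clones. Every R98S clone lay above every WT clone in both assays, and the WT clones were nearly alike in RPF. The log2 change was 0.95 in mRNA (standard error 0.22, adjusted p = 0.0424, limma) and 1.08 in RPF (standard error 0.17, adjusted p = 0.00886, limma). The mRNA call was lost without R98S clone 11 (adjusted p = 0.179), R98S clone 35 (0.126) or WT clone 36 (0.121), whereas the RPF call held in all 6 fits that left out 1 clone.

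*Csf2rb*, the common beta chain, had 64432, 52827 and 62753 normalized mRNA counts in R98S clones 11, 13 and 35 and 21027, 48871 and 30118 in WT clones 28, 29 and 36. Its RPF was at 13327, 11039.7 and 15669 in R98S and 5212, 8655 and 6114 in WT clones. The genotypes did not overlap in either assay, with WT clone 29 closest to the R98S clones in both. The log2 change was 0.93 in mRNA (standard error 0.29, adjusted p = 0.121, limma) and 1.02 in RPF (standard error 0.23, adjusted p = 0.0392, limma), so the rise was called in RPF and not in mRNA. In mRNA, *Csf2rb* passed the threshold without WT clone 29 (adjusted p = 0.0246) and with DESeq2 on recovered reads (0.0345), and its RPF call was lost without R98S clone 11 (0.135) or WT clone 36 (0.118).

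**Figure D2:**
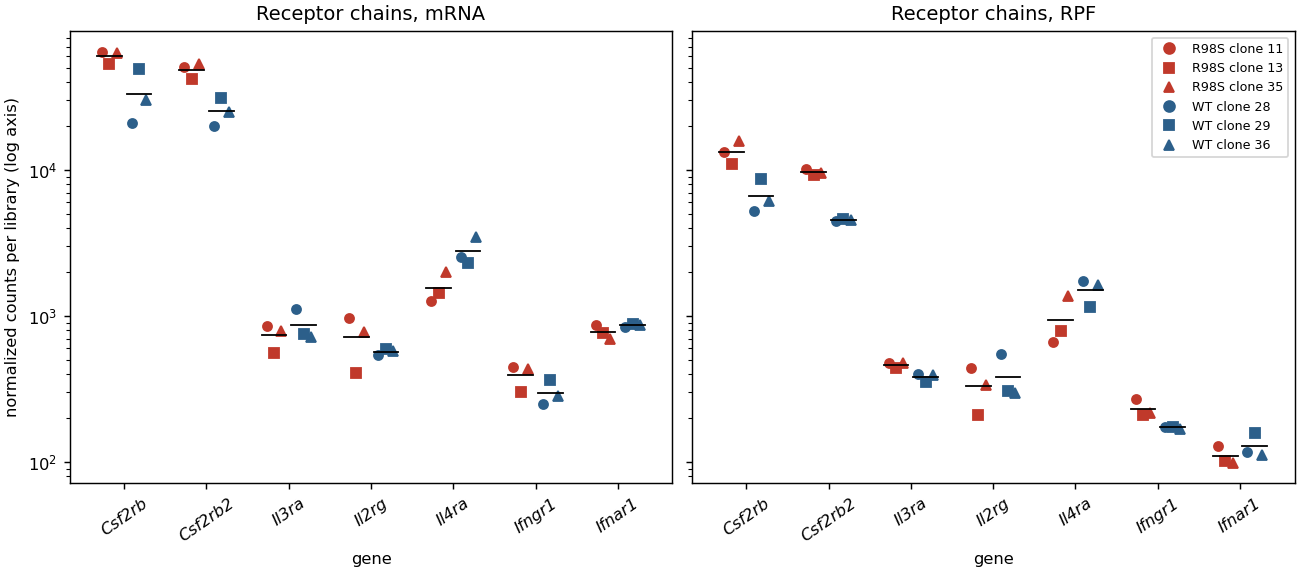
Normalized counts per library (y, log axis) of the 7 receptor chains found in both tables, for mRNA (left) and RPF (right), with R98S clones in red, WT clones in blue, a marker shape per clone and a black line at each mean. *Csf2rb* and *Csf2rb2* lie far above the other chains and higher in R98S clones (mean mRNA of 60004 against 33338.5 and 48611 against 25394), and *Il4ra* mRNA is lower in them (1563 against 2785).

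The counts of *Csf2rb* and *Csf2rb2* were also summed, which leaves out any reads dropped because they match both genes. Their sum was 115042, 94520.3 and 116284 normalized mRNA counts in R98S clones 11, 13 and 35 and 40952, 80147 and 55099.5 in WT clones 28, 29 and 36. In RPF it was 23525, 20317 and 25174 against 9674, 13289.9 and 10679. The sums did not overlap between genotypes in either assay. The log2 difference was 0.94 in mRNA and 1.04 in RPF, each with a two-sided exact permutation p = 0.1, the smallest possible with 3 against 3 clones (0.15 after Benjamini-Hochberg adjustment over 6 comparisons). Entered in limma as 1 gene in place of the pair, an alternative chosen after seeing the data, the sum gave an adjusted p of 0.0931 in mRNA and 0.0229 in RPF. In mRNA it did not pass in 5 of the 6 fits that left out a clone: without R98S clone 11 (adjusted p = 0.300, limma), 13 (0.207) or 35 (0.202) and without WT clone 28 (0.112) or 36 (0.210). It passed without WT clone 29 (0.0330). In RPF it did not pass without R98S clone 11 (adjusted p = 0.105, limma) and passed in the other 5 fits. The mRNA difference itself ran from 0.70, without WT clone 28, to 1.19, without WT clone 29.

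The share of *Csf2rb2* in the sum overlapped between genotypes. In mRNA it was 44.0%, 44.1% and 46.0% in R98S clones 11, 13 and 35 and 48.7%, 39.0% and 45.3% in WT clones 28, 29 and 36. In RPF it was 43.3%, 45.7% and 37.8% against 46.1%, 34.9% and 42.7%. The differences were 0.37 percentage points in mRNA and 1.01 in RPF (exact permutation test, two-sided p = 0.9 and 0.7, adjusted 0.9 and 0.84). The standard deviation between clones was larger, at 1.1 in R98S and 4.9 in WT clones for mRNA and 4.1 and 5.8 for RPF.

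*Il3ra*, the IL-3-binding alpha chain, lies on chromosome 14 (GRCm38, plus strand, 14346275 to 14356011). R98S clones 11, 13 and 35 had 859, 560.2 and 791 normalized mRNA counts, which overlapped with the 1112, 752 and 719 of WT clones 28, 29 and 36 (log2 change -0.22, standard error 0.24, adjusted p = 0.691, limma). Its RPF was at 479.7, 438 and 477 in R98S and 397, 354 and 393 in WT clones, higher in each R98S clone, with a log2 change of 0.29 that did not pass (standard error 0.17, adjusted p = 0.377, limma). The 95% intervals ran from -0.76 to 0.32 in mRNA and from -0.09 to 0.66 in RPF. Chromosome 14 as a whole stood higher in R98S clones 11 and 13, its median log2 level being up by 0.24 and 0.17 in mRNA and by 0.26 and 0.12 in RPF. With each chromosome's median removed, the RPF change of *Il3ra* was 0.11 and its mRNA change -0.41.

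The ratio of the summed beta chain counts to *Il3ra* counts was higher in each R98S clone. In mRNA it was 134, 169 and 147 in R98S clones 11, 13 and 35 and 36.8, 107 and 76.7 in WT clones 28, 29 and 36. In RPF it was 49.0, 46.3 and 52.8 against 24.3, 37.5 and 27.2. The groups did not overlap, and the log2 differences were 1.15 in mRNA and 0.76 in RPF (exact permutation test, two-sided p = 0.1 each, the smallest possible; adjusted 0.15). These ratios are not per length, so they compare clones and give no number of beta chains per alpha chain. Without WT clone 28, whose mRNA ratio was the lowest, the mRNA difference was 0.72.

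**Figure D3:**
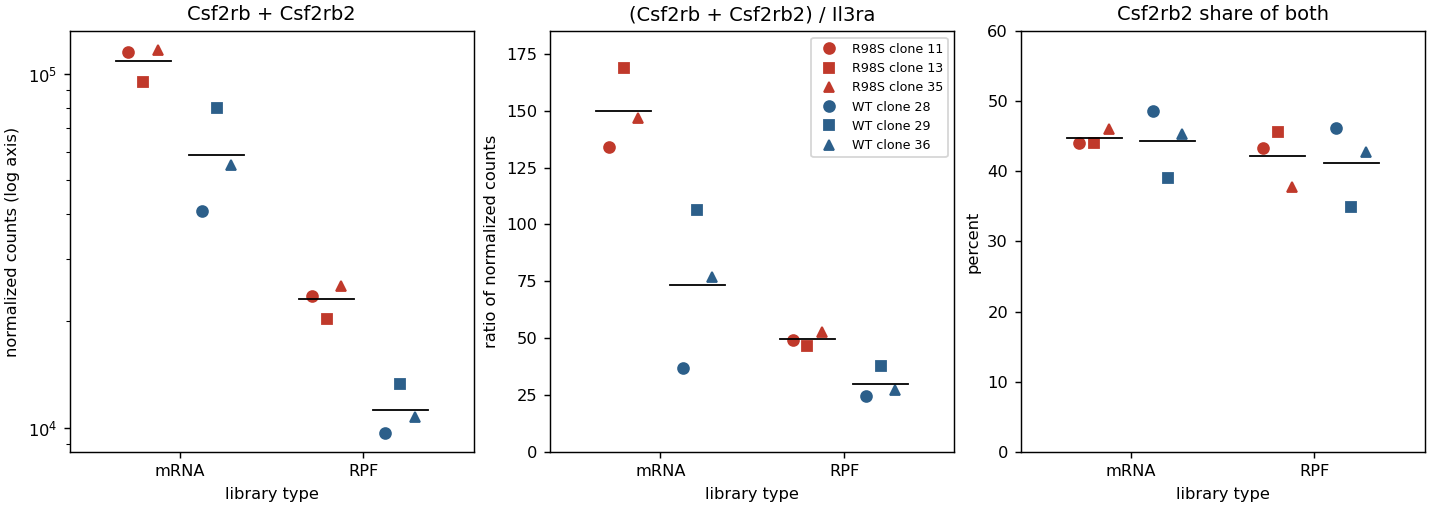
Per clone, the sum of *Csf2rb* and *Csf2rb2* normalized counts (left, log axis), its ratio to *Il3ra* (middle) and the share of *Csf2rb2* in the sum in percent (right), for mRNA and RPF, with R98S clones in red, WT clones in blue and black lines at the means. The R98S clones lie above the WT clones for the sum and the ratio, and the shares overlap, between 34.9% and 48.7%.

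*Csf2ra*, the GM-CSF-binding alpha chain on chromosome 19, had 1 read in the 6 mRNA libraries, in WT clone 36. A count of 0 allows up to 3 reads, between 2.35 and 8.06 normalized counts in these libraries, where that is counting error only. The beta chains were thus detected with *Il3ra* and, at this depth, with almost no *Csf2ra*. *Il5ra*, the alpha chain of the IL-5 receptor, was at 0 in every library.

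In the common gamma chain family, *Il4ra* changed. It encodes the IL-4-binding chain, which pairs with the common gamma chain or with *Il13ra1*, and lies on chromosome 7 (GRCm38, plus strand, 125552120 to 125579474). R98S clones 11, 13 and 35 had 1265, 1427 and 1998 normalized mRNA counts, and WT clones 28, 29 and 36 had 2551, 2312 and 3492. Its RPF was at 665, 789.5 and 1364 in R98S and 1725, 1156 and 1621 in WT clones. The genotypes were apart in mRNA, whereas in RPF R98S clone 35 lay above WT clone 29. The log2 change was -0.84 in mRNA, a called fall (standard error 0.23, adjusted p = 0.0798, limma), and in RPF it was -0.72 (standard error 0.27, adjusted p = 0.156, limma).

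The *Il4ra* mRNA call was lost without R98S clone 11 (adjusted p = 0.300), R98S clone 13 (0.265) or WT clone 36 (0.247), and its RPF passed without R98S clone 35 (0.0316). The median of chromosome 7 was shifted in the other direction, between 0.02 and 0.14 in the mRNA of R98S clones and between -0.12 and -0.04 in WT clones, and with chromosome medians removed *Il4ra* was called in mRNA (-1.02, adjusted p = 0.0425) and in RPF (-0.92, adjusted p = 0.0776).

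*Il2rg*, the common gamma chain on the X chromosome, had 968, 404 and 772 normalized mRNA counts in R98S clones 11, 13 and 35 and 537, 591 and 577 in WT clones 28, 29 and 36. Its RPF was at 442, 210.4 and 334 against 549, 305 and 296. R98S clones spread far more widely than WT clones in mRNA and included the highest and the lowest value. The log2 changes of 0.24 in mRNA and -0.22 in RPF did not pass (adjusted p = 0.731 and 0.725, limma), and each changed sign when 1 clone was left out. *Il7r*, the IL-7-binding chain on chromosome 15, had 0 reads in all 6 mRNA libraries.

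Among the remaining chains, *Il6st*, which transmits signals of the IL-6 family, had 1.59, 0.819 and 0.860 normalized mRNA counts in R98S clones 11, 13 and 35, or 2, 1 and 1 reads, and 0 in each WT clone. These lie under the limit that a count of 0 allows, so no difference was detectable at this depth. *Ifngr1*, which binds interferon gamma, was at 445, 301 and 431 in R98S and 249.7, 363 and 283 in WT clones for mRNA, which overlapped, and at 272, 209 and 215 against 175, 175 and 167 for RPF, which did not. Its log2 changes of 0.39 and 0.42 did not pass (adjusted p = 0.451 and 0.272, limma). *Ifnar1*, a type I interferon receptor chain, was at 863, 767 and 693 against 846, 883 and 861 in mRNA and at 128, 102 and 99.1 against 117, 157 and 112 in RPF. Both assays overlapped, and its log2 changes were -0.16 and -0.22 (adjusted p = 0.679 and 0.641, limma). The counts of *Il3ra* and *Il4ra* may hold reads of an antisense gene, and those of *Il2rg* reads of a predicted gene on the same strand, since these overlap them in the annotation.

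Translation efficiency (TE) is the log2 ratio of RPF to mRNA in the same clone, and it has no absolute scale because each table was normalized on its own. None of the 7 chains changed in TE at an adjusted p under 0.1 (limma), where 0.0221% of 9043 tested genes did, and 1 chain, *Il3ra*, had an unadjusted p under 0.05. DESeq2 and edgeR on recovered reads also called none of the 7. R98S clones lay entirely above WT clones for *Il3ra* and entirely below for no chain, against 7.45% and 7.36% of all tested genes. The RPF to mRNA ratio of *Il3ra* was 0.558, 0.782 and 0.603 in R98S clones 11, 13 and 35 and 0.357, 0.471 and 0.546 in WT clones 28, 29 and 36. This is a log2 difference of 0.51 (standard error 0.22, unadjusted p = 0.0479, adjusted p = 0.629, limma), or 0.34 without WT clone 28.

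For the beta chains, the TE difference was small beside that of mRNA and RPF. The RPF to mRNA ratio of *Csf2rb* was 0.207, 0.209 and 0.250 in R98S and 0.248, 0.177 and 0.203 in WT clones, and that of *Csf2rb2* was 0.202, 0.223 and 0.178 against 0.224, 0.148 and 0.183. Clones of both genotypes overlapped, with log2 differences of 0.09 (95% interval -0.36 to 0.55) and 0.13 (-0.35 to 0.62). *Il4ra* (0.11), *Ifngr1* (0.03) and *Ifnar1* (-0.06) had intervals on either side of 0 as well. *Il2rg* differed by -0.46 (adjusted p = 0.678, limma), but WT clone 28 stood apart at a ratio of 1.02 where the other clones were between 0.433 and 0.521, and the difference was -0.13 without it.

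**Figure D4:**
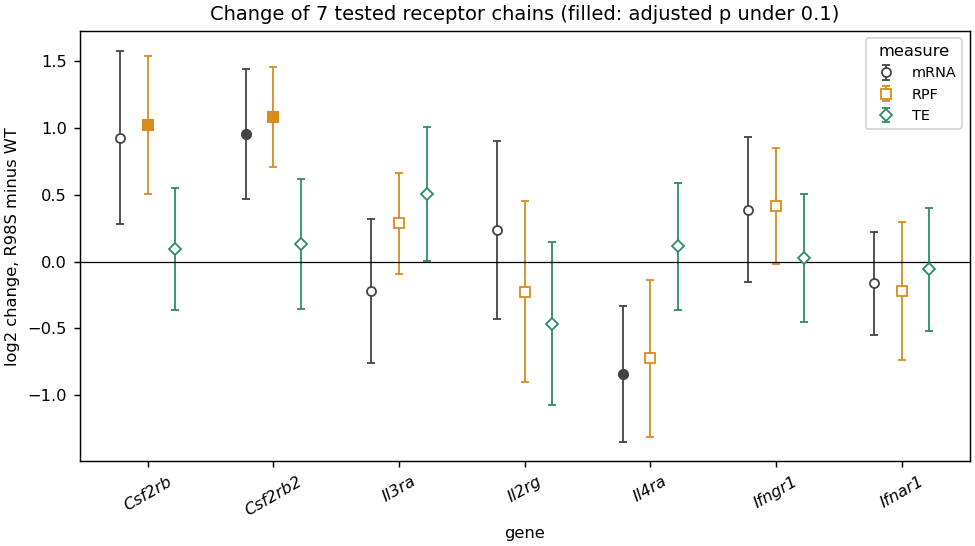
Log2 change in R98S against WT clones (y) of the 7 tested receptor chains in mRNA (circles), RPF (squares) and TE (diamonds), with 95% intervals from limma. Filled points have an adjusted p under 0.1: *Csf2rb2* in mRNA (0.95) and RPF (1.08), *Csf2rb* in RPF (1.02) and *Il4ra* in mRNA (-0.84), and no TE point is filled.

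The rest of the cytokine receptor family gave the background of these changes. Of 33 other receptor chains, 8 were at 0 in all mRNA libraries, 8 stayed under a mean of 10 and 17 were tested. Of the 17, 0 were called higher in mRNA and 1 lower, and of 12 tested in RPF again 0 and 1, in each case *Il2rb*. At an unadjusted p under 0.05, 4 were higher in mRNA and 1 in RPF, and DESeq2 and edgeR on recovered reads called 0 higher in both. Limma with library quality weights, which called 2959 of the 11344 genes in mRNA, called 4 higher (*Crlf2*, *Il11ra1*, *Il21r* and *Il27ra*) and 3 lower (*Il13ra1*, *Il2ra* and *Il2rb*), and in RPF *Crlf2* higher and *Il2rb* lower. Their median log2 change was -0.11 in mRNA and -0.11 in RPF, beside 0.01 over all tested genes in both. Without weights, limma called 3.03% of all tested genes higher and 3.91% lower in mRNA, and 3.13% and 4.62% in RPF. *Il2rb*, the beta chain shared by the IL-2 and IL-15 receptors, was at 65.9, 124 and 74.8 normalized mRNA counts in R98S and 236, 363 and 321 in WT clones, and at 20.7, 36.9 and 21.8 against 90.8, 86.4 and 83.0 in RPF. The genotypes did not overlap, and the log2 change was -1.82 in mRNA (standard error 0.31, adjusted p = 0.0120, limma) and -1.72 in RPF (standard error 0.31, adjusted p = 0.0140, limma).

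**Figure D5:**
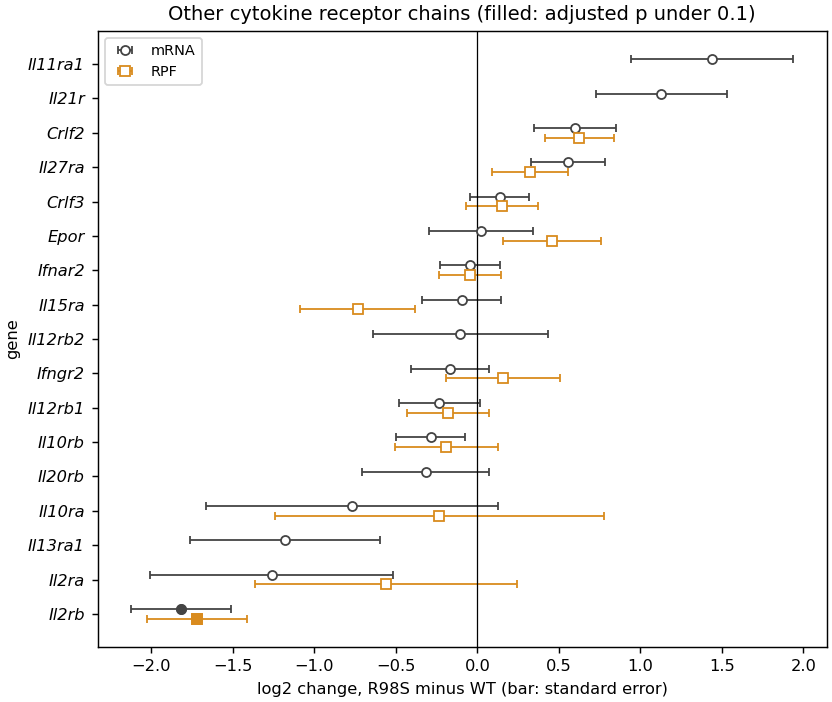
Log2 change in R98S against WT clones (x, bars: standard error) of the 17 other cytokine receptor chains tested in mRNA (circles) and, where in that test, in RPF (squares). *Il2rb* at the bottom is the chain with filled points, adjusted p under 0.1, at -1.82 and -1.72, and *Il11ra1* at the top has an open point at 1.44.

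*Il2rb* also lies near the beta chain genes on chromosome 15 (GRCm38, 78479256 to 78495271). Within 250000 nt on either side of the *Csf2rb2* and *Csf2rb* pair, 8 other genes were tested in mRNA, of which 0 were called higher (2 at an unadjusted p under 0.05; DESeq2 called 1, *Ncf4*, edgeR 0, and limma with library quality weights 2, *Ncf4* and *Tst*) and 1, *Il2rb*, lower. Their log2 changes ran from -1.82 to 1.11, with 5 above 0 and 3 below and a median of 0.13. Of all tested genes, limma called 3.03% higher and 3.91% lower in mRNA. The direct neighbours, chosen after their values were seen, were *Ncf4* (0.77, adjusted p = 0.141, limma) beside *Csf2rb2* and *Tst* (1.11, adjusted p = 0.232, limma) beside *Csf2rb*. In RPF, the change of *Tst* was 2.41 and passed (adjusted p = 0.0197, limma), and that of *Ncf4* was 0.50 and did not (adjusted p = 0.256), though it did with library quality weights. The median of all genes on chromosome 15 moved by at most 0.07 in any mRNA library.

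Downstream of the receptors, 10 of 11 JAK and STAT genes were tested. In mRNA limma called 0 of these higher and 0 lower, where 3.03% and 3.91% of all tested genes were. At an unadjusted p under 0.05 there were also 0, and DESeq2 and edgeR called 0. In RPF limma called 0 of these genes higher and 1 lower, where 3.13% and 4.62% of all tested genes were. The lower gene was *Stat2*, which acts in type I interferon signalling. R98S clones 11, 13 and 35 had 128, 136 and 156 normalized RPF counts and WT clones 28, 29 and 36 had 368, 293 and 248. The log2 change was -1.09 (standard error 0.21, adjusted p = 0.0210, limma). In mRNA the change of *Stat2* was -0.41 and did not pass (adjusted p = 0.291, limma). Its mRNA counts of 637, 618 and 511 in R98S and 851, 821 and 681 in WT clones did not overlap. In TE its R98S clones also lay entirely below the WT clones (-0.68, adjusted p = 0.629, limma). Such separation downwards was found for 11.6% of all tested genes in mRNA, 12.8% in RPF and 7.36% in TE. *Jak2* (-0.17 in mRNA), *Stat5a* (0.19) and *Stat5b* (-0.06), through which the IL-3 receptor signals, did not pass. The median change of the list was 0.05 in mRNA and -0.03 in RPF.

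All 14 genes of a list of receptor-proximal signalling genes, among them adaptors, kinases, ubiquitin ligases and phosphatases, were tested. Of these, 1 rose in mRNA and 0 fell (3 at an unadjusted p under 0.05). DESeq2 called 2 lower, *Ptprc* and *Shc1*, and edgeR 0. Library quality weights called 2 higher in mRNA (*Cblb* and *Inpp5d*) and 4 lower (*Lyn*, *Pik3cd*, *Ptprc* and *Shc1*). In RPF 1 rose and 1 fell, as with edgeR, while DESeq2 called 2 higher (*Cblb* and *Gab2*) and 2 lower (*Ptpn6* and *Ptprc*) and the weights 2 higher (*Cblb* and *Gab2*) and 2 lower (*Pik3cd* and *Ptprc*). Of all tested genes, limma called 3.03% higher and 3.91% lower in mRNA, and 3.13% and 4.62% in RPF. The list's median log2 change was -0.09 in both assays. *Cblb*, an E3 ubiquitin ligase that restrains receptor signalling, was at 1962, 2328 and 1829 normalized mRNA counts in R98S and 489, 643 and 568 in WT clones, and at 606, 668 and 516 against 142, 175 and 121 in RPF. Its log2 change was 1.85 in mRNA (standard error 0.19, adjusted p = 0.000701, limma) and 2.03 in RPF (standard error 0.21, adjusted p = 0.000656, limma), far beyond the spread between clones. *Ptprc*, which encodes the phosphatase CD45, had 3284, 2615 and 3271 normalized RPF counts in R98S and 6877, 8987 and 5365 in WT clones (log2 change -1.19, standard error 0.22, adjusted p = 0.0157, limma). Its mRNA change of -0.80 did not pass (adjusted p = 0.175), with WT clone 28 among the R98S clones.

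The genes most like the IL-3 receptor chains were found by the root mean square difference in log2(normalized count + 1), centred within each assay, over the 12 libraries and 9501 genes. For *Csf2rb2* they were *Fcgr3* (0.118), *Arntl* (0.184) and *Grhpr* (0.185), and for *Csf2rb* they were *Asph* (0.163), *Ipp* (0.167) and *Fam129a* (0.178). The beta chains differed from each other by 0.212, so that *Csf2rb2* was the 10th most alike gene to *Csf2rb* and *Csf2rb* the 12th to *Csf2rb2*. For *Il3ra* they were *Ccdc12* (0.095), *Sptssa* (0.0972) and *Ap1s1* (0.104).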

How the data were processed

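The authors deposited 1 table per assay of signal values, gene counts divided by DESeq2 size factors. Per their methods, they trimmed adapters and removed rRNA and tRNA reads with Bowtie2 for footprints, aligned to mm10 with TopHat2 2.0.11, kept primary alignments above a mapping quality limit, counted mRNA reads over exons and RPF reads over coding sequences without the first 15 and last 5 codons, and merged 3 technical replicates per footprinting library. The annotation release and strand setting are not given in the sources used here. Whole reads were recovered for 100% of values (relative tolerance 1e-06), and 0 further per-sample columns were left unused.

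Groups and clone numbers come from the labels. Genes with a mean of at least 10 (mRNA, RPF), or at least 10 in all 12 libraries (TE), were tested with limma 3.58.1 (R 4.3.3, trend, log2(value + 1)), with Benjamini-Hochberg adjustment over all tested genes. RPF and mRNA libraries were paired by clone: deviations from genotype means correlated with a mean r of 0.571 (0.332 to 0.700 over 6 clones, 9501 genes). Clones of different genotypes share no number. The tests were tried on reads simulated with the same dispersion for every gene of an assay, unlike real clones, and the outcome is not given here. DESeq2 1.42.0, edgeR 4.0.16 and the other settings were alternatives. Single values used exact permutation tests, two-sided. Lengths and coordinates come from GENCODE M21 (GRCm38, the build mm10), promoter windows from RefSeq, and alignment from Biopython 1.88. The 10 chains and all lists were chosen with earlier results of these data known. Named genes were all 10 chains, *Rpl10*, list genes past the threshold, the 3 most alike genes of 3 chains, and the highest and absent markers. Others named were chosen after their values were seen. Protein sequences were not used here. A gene of the list of other receptor chains is not reported here and is left out of that list's counts.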

Additional observations from a re-analysis of the deposited data

How the results depend on the processing

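Of the alternatives for the 7 tested chains and the 3 beta chain measures, those that left out no clone kept direction and side of the threshold except as follows. DESeq2 on recovered reads called 1283 genes in mRNA (578 higher, 705 lower) in place of 787 and 54 in TE in place of 2. Library quality weights called 2959 in mRNA, 1799 in RPF in place of 743 and 796 in TE. Both settings called 2 chains higher in mRNA, adding *Csf2rb*, and the weights turned the *Il3ra* mRNA change to 0.036. Weights and removal of chromosome medians called 1 chain lower in RPF, *Il4ra*. With the summed beta chains as 1 gene in limma, chosen after seeing the data, the sum passed at 0.94 in mRNA and 1.04 in RPF, but in mRNA only 1 of 6 fits without a clone kept the pass (without WT clone 29; adjusted p 0.0330 to 0.300), and in RPF it was lost without R98S clone 11 (0.105). Pairing by clone changed no call of a chain: with no replicate block, 3 genes were called in TE.

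Leaving out each clone in turn gave 315 to 1113 genes in mRNA, 229 to 1148 in RPF and 0 to 3 in TE. Chains called higher ranged from 0 to 2 in mRNA and 1 to 2 in RPF, and lower from 0 to 1 in both. The difference in *Csf2rb2* share ranged from -2.28 to 2.53 percentage points in mRNA and -2.18 to 3.45 in RPF. *Il2rg* ranged from -0.0245 to 0.605 in mRNA and -0.47 to 0.0646 in RPF. In TE, *Csf2rb* ranged from -0.0217 to 0.22, *Csf2rb2* from -0.0189 to 0.28, *Ifngr1* from -0.11 to 0.16 and *Ifnar1* from -0.147 to 0.0785. The cause of these changes was not tested. Depth limits *Csf2ra*, *Il7r* and *Il6st*, at 0 to 2 reads per library, and the number of clones limits the exact tests to p = 0.1.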

Other observations

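Several cytokine genes were detected in mRNA. Of 17 cytokine ligands, 7 were at 0 in all mRNA libraries, *Il3* and *Csf2* among them, and 5 were tested, of which 0 were called in mRNA by limma (0 at an unadjusted p under 0.05) and, of 4 in RPF, again 0 (1, *Osm*, at an unadjusted p under 0.05). DESeq2 and edgeR also called 0 in both, and limma with library weights called *Osm* lower in both. Without weights, limma called 3.03% of all tested genes higher and 3.91% lower in mRNA, and 3.13% and 4.62% in RPF. *Lif* had 1149, 1243 and 2272 normalized mRNA counts in R98S clones 11, 13 and 35 and 1539, 1705 and 1562 in WT clones 28, 29 and 36. *Osm* varied widely, with 676, 615 and 3251 against 3443, 1353 and 2870, and *Il6* with 917, 617.5 and 2117 against 569, 1136 and 596. Their receptors were low: *Lifr* and *Osmr* had at most 1.72 normalized counts in any library, and *Il6ra* at most 1.57. *Il15* had 375, 463 and 204 against 309, 534 and 249, and *Il15ra*, which presents it, 196, 301 and 233 against 298, 233 and 242. In RPF, *Il15ra* had a mean of 17.1 in R98S and 29.1 in WT clones, without overlap. The log2 change of -0.73 did not pass (adjusted p = 0.277, limma). Its TE was also lower without overlap (-0.64, adjusted p = 0.629, limma), and limma with library quality weights called it lower in TE. Such separation downwards was found for 12.8% of all tested genes in RPF and 7.36% in TE. These ligands and receptors were named after their values were seen.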
